A study of Mus musculus with 16 samples.

Results

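Transcripts that mark the macrophages of the liver were followed through 16 livers in 34 genes, of the 25803 genes in the joined count table. The members were taken by gene symbol. They comprise 7 genes of Kupffer cells, 3 chains of complement C1q, 10 genes shared by most macrophages, 6 genes of monocytes and recruited cells, 6 genes of lipid-associated macrophages and the 2 alarmin genes S100a8 and S100a9. All 34 were found in the table and 33 passed the filter on low counts. S100a8 did not pass and has values but no test.

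All mice were males on a 12 week high-fat diet, and 4 libraries of liver poly-A RNA represented each of 4 groups. Mice were of the genotype labelled Control or LKO, a liver knockout of Cpt1a, which encodes the carnitine palmitoyltransferase that passes long-chain fatty acids into mitochondria. They were killed either after a 16 h fast or after such a fast and 6 h of refeeding. The fasted state was sampled by control libraries S40, S41, S42 and S43 and LKO libraries S44, S45, S46 and S47. The refed state was sampled by control libraries S48, S49, S50 and S51 and LKO libraries S52, S53, S54 and S55. How the knockout was made, the strain and the age of the mice are not given in the sources used here.

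Kupffer cells are macrophages that settle in the liver before birth and live along the sinusoids, where they take up particles, spent red cells and complement-coated microbes from the blood. When the liver is injured or loaded with fat, monocytes enter through the chemokine receptor CCR2 and can become macrophages that fill the emptied niche or gather around dying, lipid-laden cells. The latter are known as lipid-associated macrophages and are marked by TREM2, GPNMB and osteopontin. The identity of tissue macrophages depends on the factor PU.1, which binds purine-rich sites with a GGAA core near macrophage genes.

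Promoters of 6 members are shown because they span both programs compared here, Kupffer and C1q genes on the one side and lipid-associated genes on the other. Each is the 250 bases before the RefSeq start of transcription, read 5′ to 3′ on the strand of the gene, and capitals mark the letters GGAAGT on either strand (ACTTCC is its complement).
Clec4f: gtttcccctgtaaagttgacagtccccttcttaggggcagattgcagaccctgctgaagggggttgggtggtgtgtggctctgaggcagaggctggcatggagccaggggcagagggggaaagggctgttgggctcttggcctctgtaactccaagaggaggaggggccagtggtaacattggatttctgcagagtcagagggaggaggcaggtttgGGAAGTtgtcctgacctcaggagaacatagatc
Vsig4: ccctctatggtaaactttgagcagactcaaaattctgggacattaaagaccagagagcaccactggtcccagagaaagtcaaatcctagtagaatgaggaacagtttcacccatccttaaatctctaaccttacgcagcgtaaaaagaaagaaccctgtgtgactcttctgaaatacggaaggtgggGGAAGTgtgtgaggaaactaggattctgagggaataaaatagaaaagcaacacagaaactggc
C1qb: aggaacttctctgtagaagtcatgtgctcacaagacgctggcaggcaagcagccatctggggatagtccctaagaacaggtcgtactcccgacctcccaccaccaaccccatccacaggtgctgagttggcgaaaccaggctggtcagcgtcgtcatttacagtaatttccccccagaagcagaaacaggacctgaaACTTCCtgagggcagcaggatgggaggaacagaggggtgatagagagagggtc
C1qc: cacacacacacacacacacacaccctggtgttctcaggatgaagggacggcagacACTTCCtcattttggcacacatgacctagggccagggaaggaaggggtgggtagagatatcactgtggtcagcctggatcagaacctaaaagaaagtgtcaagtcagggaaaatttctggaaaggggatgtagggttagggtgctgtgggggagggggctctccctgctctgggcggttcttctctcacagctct
Gpnmb: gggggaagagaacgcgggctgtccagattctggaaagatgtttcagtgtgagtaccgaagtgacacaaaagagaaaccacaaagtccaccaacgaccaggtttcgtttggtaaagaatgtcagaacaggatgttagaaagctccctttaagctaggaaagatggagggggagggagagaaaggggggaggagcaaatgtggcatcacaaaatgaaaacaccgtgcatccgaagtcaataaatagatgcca
Cd9: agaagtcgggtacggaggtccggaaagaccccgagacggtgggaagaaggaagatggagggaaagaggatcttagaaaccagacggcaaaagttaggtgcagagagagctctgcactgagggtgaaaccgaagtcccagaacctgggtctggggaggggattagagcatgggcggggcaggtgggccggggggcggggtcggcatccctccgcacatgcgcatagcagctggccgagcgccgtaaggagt
The first 4 hold 1 copy each, and the promoters of Gpnmb and Cd9 hold none. The motif does not divide the lists, since the promoters of the lipid-associated genes Cd63, Mmp12 and Spp1 hold it too. The matched promoters of the Kupffer genes Marco, Cd5l and Cd163 lack it. They lie on GRCm38.p6 at chr6:83656117-83656366 (minus strand) for Clec4f, chrX:96293439-96293688 (minus strand) for Vsig4, chr4:136886201-136886450 (minus strand) for C1qb, chr4:136892915-136893164 (minus strand) for C1qc, chr6:49036268-49036517 (plus strand) for Gpnmb and chr6:125494761-125495010 (minus strand) for Cd9. RefSeq promoters, 300 bases long, were matched for 28 of the 34 members, which gave 31 promoters. Of these, 15 (48.4%) held GGAAGT, against 19.7% of all 32851 promoters in the table. The longer form GAGGAAGT, which contains the first motif, occurred in 4 (12.9%) against 2.44%. The AP-1 type TGACTCA also occurred in 4 (12.9%), against 4.46%, and the E-box TCACGTG in 0 against 3.13%. These matches describe letters in a window and say nothing of binding.

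Libraries held 14721601 to 24618230 counts. Cpt1a transcripts in LKO livers stood at 20.7% of control in the fasted and 11.9% in the refed state, without overlap (exact two-sided permutation p = 0.0286 in each state, the smallest that 4 against 4 allows). Hepatocyte markers summed to between 57526 and 85226 CPM (counts per M, or mega, of the TMM-scaled total), which fits a liver label. In bulk RNA, fewer cells of a type and less RNA per cell cannot be told apart. Nothing in the labels ties a library to a separate animal beyond its title. The libraries are taken here as separate livers, and p-values set group differences against the spread between these libraries. Libraries S49, S51, S43 and S47 stood apart in the macrophage genes, and list medians are also given without them where they bear on the comparison.

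Levels of different members were compared as CPM per kilobase of gene length, averaged over all 16 libraries. The order was led by Cd5l at 65.0, C1qa at 61.0, C1qb at 56.3, Lyz2 at 53.6, Clec4f at 42.5 and C1qc at 29.7 CPM per kb. Lyz2 has a near-identical neighbour, Lyz1, and its reads may be split between the pair. Cd5l and C1qa, neighbours in that order, did not differ beyond their spread in fasted controls, at 70.5 ± 17.5 and 69.9 ± 17.2 CPM per kb (SD, n = 4). Other neighbours did in some groups: in refed LKO livers Clec4f was at 32.7 ± 3.31 and C1qc at 22.6 ± 3.15 CPM per kb (SD, n = 4). Spp1 at 21.2 was the highest of the lipid-associated genes, and osteopontin is also made by bile duct cells. Gpnmb, Trem2 and Mmp12 lay far lower, at 0.461, 0.465 and 0.426 CPM per kb. Of the 6 recruited genes, Ccl6 at 5.01 and Ccl2 at 1.25 lay in mid-order and the other 4 closed it, with Itgax at 0.337, Cx3cr1 at 0.306, Ccr2 at 0.242 and Itgam at 0.141 CPM per kb. Thus the per-length level of the Kupffer lectin gene Clec4f was far above that of Ccr2 in every group, from 32.7 ± 3.31 against 0.260 ± 0.0205 in refed LKO livers to 47.9 ± 12.6 against 0.257 ± 0.153 in fasted controls (SD, n = 4).

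**Figure D1:**
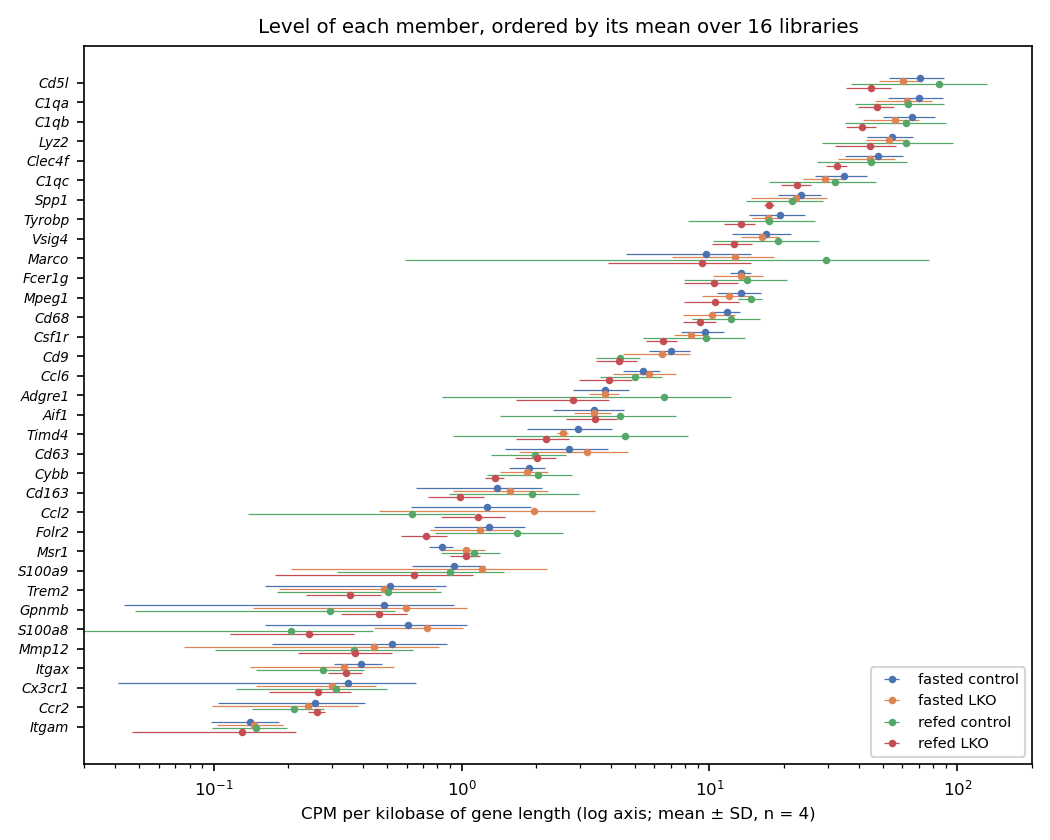
Mean level of each of the 34 members in CPM per kilobase of gene length on a log axis, with points and bars for the mean ± SD of 4 libraries in each of the 4 groups. Cd5l, the C1q chains, Lyz2 and Clec4f occupy the top and the integrin and chemokine receptor genes the bottom, and the bars of the 4 groups overlap within nearly every row.

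Loss of Cpt1a in the fasted state left the macrophage genes without a single call. Of the 33 tested members, 0 passed edgeR's quasi-likelihood test at an adjusted p under 0.05, while 12.2% of all 14488 genes did. None reached an unadjusted p under 0.05 (26.7% of all genes did), and DESeq2 and limma-voom also called 0. The median log2 fold change of LKO over control was -0.09 over the members and 0.02 over all genes, with 9 members fitted higher and 24 lower. Of all genes, 52.5% were fitted higher. The lowest adjusted p was 0.307, for the scavenger receptor gene Msr1 (log2 fold change 0.32, 95% interval -0.08 to 0.72). For 23 of the 33 members the 95% interval lay within a 2-fold change in either direction. A p that misses the threshold does not show that the genotypes act alike, and the intervals of Marco (-1.38 to 2.15) and Gpnmb (-1.20 to 1.77) were wide.

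After refeeding the same genotype comparison again gave 0 calls among 33 members, where 3.63% of all genes passed. The members nevertheless lay mostly on the lower side: 27 of 33 were fitted lower in LKO. Of all genes, 47.8% were fitted higher. The median of the 33 members was -0.45 on the log2 scale, against -0.01 over all genes. Of these, 10 had an unadjusted p under 0.05, all lower in LKO, and 18.4% of all genes had one; DESeq2 and limma-voom called 0. The 10 were Folr2, Cd5l, Timd4, Cd163 and Vsig4 of the Kupffer list, C1qb, and the shared genes Adgre1, Mpeg1, Cybb and Csf1r. The lowest adjusted p was 0.111, for Folr2. For 11 of 33 the interval lay within 2-fold. Without the refed control library S49 the median over members was -0.28, and without S51 it was -0.57.

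The 2 genotype effects were compared directly by the interaction of genotype and state. Of 33 members, 0 passed, against 0.538% of all genes, and 0 had an unadjusted p under 0.05 (16.5% of all genes had one). DESeq2 and limma-voom called 0 as well. The lowest adjusted p was 0.315, for Adgre1, at -1.23 (95% interval -2.50 to 0.03) on the log2 scale. The lower fitted values of refed LKO livers were therefore not shown to differ from those of the fasted state.

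For refeeding after the fast, 1 of 33 members passed in controls, where 15.4% of all genes passed. That member was the tetraspanin gene Cd9, which fell. In controls 2 members had an unadjusted p under 0.05, against 30.0% of all genes. In LKO livers 0 of 33 members passed against 18.1% of all genes, 2 (Cd9 and Ccl6) had an unadjusted p under 0.05 and both were lower after refeeding, 31.0% of all genes had one, and DESeq2 and limma-voom called 0. The medians of the members were -0.04 in controls and -0.38 in LKO livers, with 17 and 29 members fitted lower. Of all genes, 51.1% were fitted higher in controls and 47.9% in LKO livers. Both refeeding comparisons share libraries with the genotype comparisons, so their values are given side by side only. The authors' deposited tables give the same counts of members under an adjusted p of 0.05, with 0 for LKO in either state, 1 for refeeding in controls and 0 for refeeding in LKO livers.

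**Figure D2:**
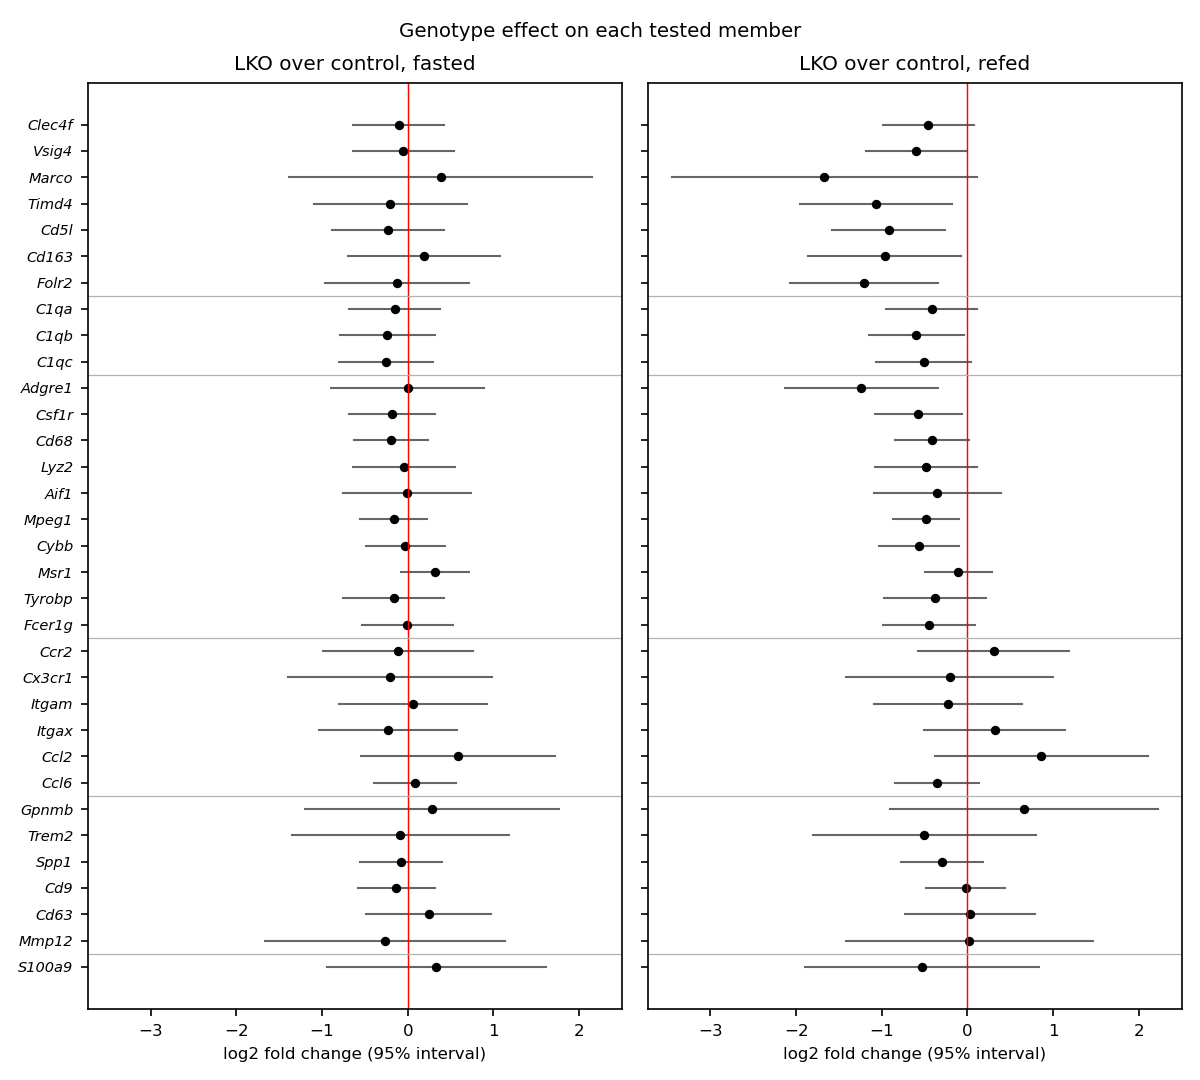
Log2 fold change of LKO over control for each of the 33 tested members, with 95% intervals, in the fasted (left) and refed (right) state, ordered by list. In the fasted panel the points lie on both sides of 0, and in the refed panel all 7 Kupffer, 3 C1q and 10 shared genes lie below it, with 0 members called in either.

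Among Kupffer cell genes, Clec4f (mm39 chromosome 6, 83621524 to 83633169, minus strand) encodes a lectin that in mice is made by Kupffer cells. Its CPM were 143, 127, 131 and 72.9 in fasted controls and 147, 81.7, 95.2 and 116 in fasted LKO livers. They were 170, 115, 92.0 and 67.1 in refed controls and 76.3, 89.8, 85.5 and 72 in refed LKO livers. Refed LKO libraries formed a narrow band inside the wide range of refed controls, whose lowest library, S51, was below all of them. The refed log2 fold change of LKO over control was -0.46 (95% interval -0.99 to 0.07, edgeR adjusted p = 0.354). In the fasted state it was -0.11 (-0.63 to 0.42).

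Cd5l encodes a secreted scavenger protein of tissue macrophages and was the most abundant member per length. Its CPM in refed controls were 192, 299, 119 and 79.0, against 83.5, 93.6, 116 and 71.3 in refed LKO livers. The upper pair of controls, S48 and S49, exceeded every LKO library, and the lower pair fell among them. The log2 fold change was -0.92 (95% interval -1.58 to -0.26, edgeR adjusted p = 0.113). Without S51 the gene would be called (-1.16, edgeR adjusted p = 0.0288), and without S49 the value was -0.51 (edgeR adjusted p = 0.340). In fasted livers Cd5l stood at 92.3 to 170 CPM in controls and 96.3 to 153 in LKO.

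Folr2 encodes the folate receptor beta of resident macrophages. It stood at 3.71, 3.82, 1.67 and 1.15 CPM in refed controls and 1.38, 1.24, 0.927 and 0.910 in refed LKO livers. All 4 LKO libraries were below the 3 higher controls, and S51 lay among them. The log2 fold change was -1.21 (95% interval -2.07 to -0.35, edgeR adjusted p = 0.111), the lowest adjusted p of any member in this comparison.

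Timd4, a receptor for phosphatidylserine on dying cells and a mark of long-resident Kupffer cells, stood at 10.0, 21.0, 5.61 and 3.05 CPM in refed controls and 4.55, 5.30, 5.93 and 3.25 in refed LKO livers. Its log2 fold change was -1.07 (95% interval -1.96 to -0.19, edgeR adjusted p = 0.172). It would be called without S51 (-1.36, edgeR adjusted p = 0.0462) and was -0.40 without S49 (edgeR adjusted p = 0.583). The 4 fasted LKO libraries lay close together for this gene, between 5.15 and 5.72 CPM.

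Vsig4, the complement receptor that captures opsonised particles, stood at 37.7, 39.7, 22.0 and 13.1 CPM in refed controls and 15.5, 21.4, 21.9 and 15.9 in refed LKO livers. Its refed log2 fold change was -0.60 (edgeR adjusted p = 0.270). Cd163, the receptor for haemoglobin bound to haptoglobin, stood at 15.5, 15.4, 5.97 and 5.29 CPM in refed controls and 6.09, 6.54, 3.40 and 5.46 in refed LKO livers, a log2 fold change of -0.97 (edgeR adjusted p = 0.229). In both genes S48 and S49 stood above the refed LKO range, and S50 and S51 fell within or near it.

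Marco, a scavenger receptor for particles and bacteria, was the least even member. Its CPM in refed controls were 12.6, 192, 18.0 and 4.14, so that library S49 was more than 10 times any other of its group. The other groups ranged from 6.55 to 26.6 in fasted controls, from 9.26 to 34.6 in fasted LKO and from 10.6 to 33.4 in refed LKO livers. Its refed log2 fold change of -1.67 (95% interval -3.45 to 0.11, edgeR adjusted p = 0.307) became 0.60 (edgeR adjusted p = 0.622) without S49.

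The C1q chains, secreted by Kupffer cells and other macrophages and assembled into the first component of the classical complement pathway, followed each other closely. C1qb stood at 87.6, 70.0, 80.5 and 48.1 CPM in fasted controls and 78.9, 47.4, 48.7 and 67.9 in fasted LKO livers. It stood at 83.4, 102, 45.3 and 40.8 in refed controls and 39.7, 47, 52.5 and 40.2 in refed LKO livers. Again S48 and S49 were above all refed LKO libraries, and S50 and S51 were not. The refed log2 fold change of LKO over control was -0.60 for C1qb (95% interval -1.15 to -0.04, edgeR adjusted p = 0.232), -0.51 for C1qc and -0.42 for C1qa. The 3 chains are neighbours on chromosome 4, and no call was made in any comparison.

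Genes shared by macrophages lay on the same side, most with smaller folds. Adgre1, which encodes the surface antigen long used to stain mouse macrophages, stood at 15.9, 48.5, 12.5 and 7.94 CPM in refed controls and 6.24, 8.70, 14.4 and 6.97 in refed LKO livers. The log2 fold change was -1.24 (95% interval -2.13 to -0.34, edgeR adjusted p = 0.118). Its size moved with single libraries: without S49 the value was -0.43 (edgeR adjusted p = 0.469), and without S51 the gene would be called at -1.51 (edgeR adjusted p = 0.0446).

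Csf1r, the receptor for the growth factors CSF1 and IL-34 on which macrophages depend, stood at 61.0, 54.1, 65.4 and 40.5 CPM in fasted controls, 56.7, 41.6, 44.2 and 52.3 in fasted LKO, 63.4, 86.6, 42.1 and 30.7 in refed controls and 33.1, 40.4, 43.4 and 32.9 in refed LKO livers. Its refed log2 fold change was -0.57 (95% interval -1.08 to -0.07, edgeR adjusted p = 0.204). Mpeg1, a pore-forming protein of phagocytes, was at -0.48 (edgeR adjusted p = 0.163), and Cybb, the catalytic subunit of the phagocyte oxidase, was at -0.57 (edgeR adjusted p = 0.170). Refed LKO livers held 35.5 to 60.9 CPM of Mpeg1 against 53.7 to 70.7 in refed controls, and the ranges met only through LKO library S54.

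The remaining shared genes were fitted lower in refed LKO livers too. The lysosomal glycoprotein gene Cd68 was at -0.42, the lysozyme gene Lyz2 at -0.49, the Fc receptor gamma chain Fcer1g at -0.45, the adaptor Tyrobp at -0.38, the actin-binding Aif1 at -0.35 and the scavenger receptor Msr1 at -0.11, all on the log2 scale with intervals that include 0. Aif1 and Tyrobp were fitted higher (0.21 and 0.01) without S49. In the fasted state the same 6 genes lay between -0.20 and 0.32. Msr1 was higher after refeeding in controls by 0.43 (edgeR adjusted p = 0.134), a difference that would be called without S51 (0.58, edgeR adjusted p = 0.0281).

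**Figure D3:**
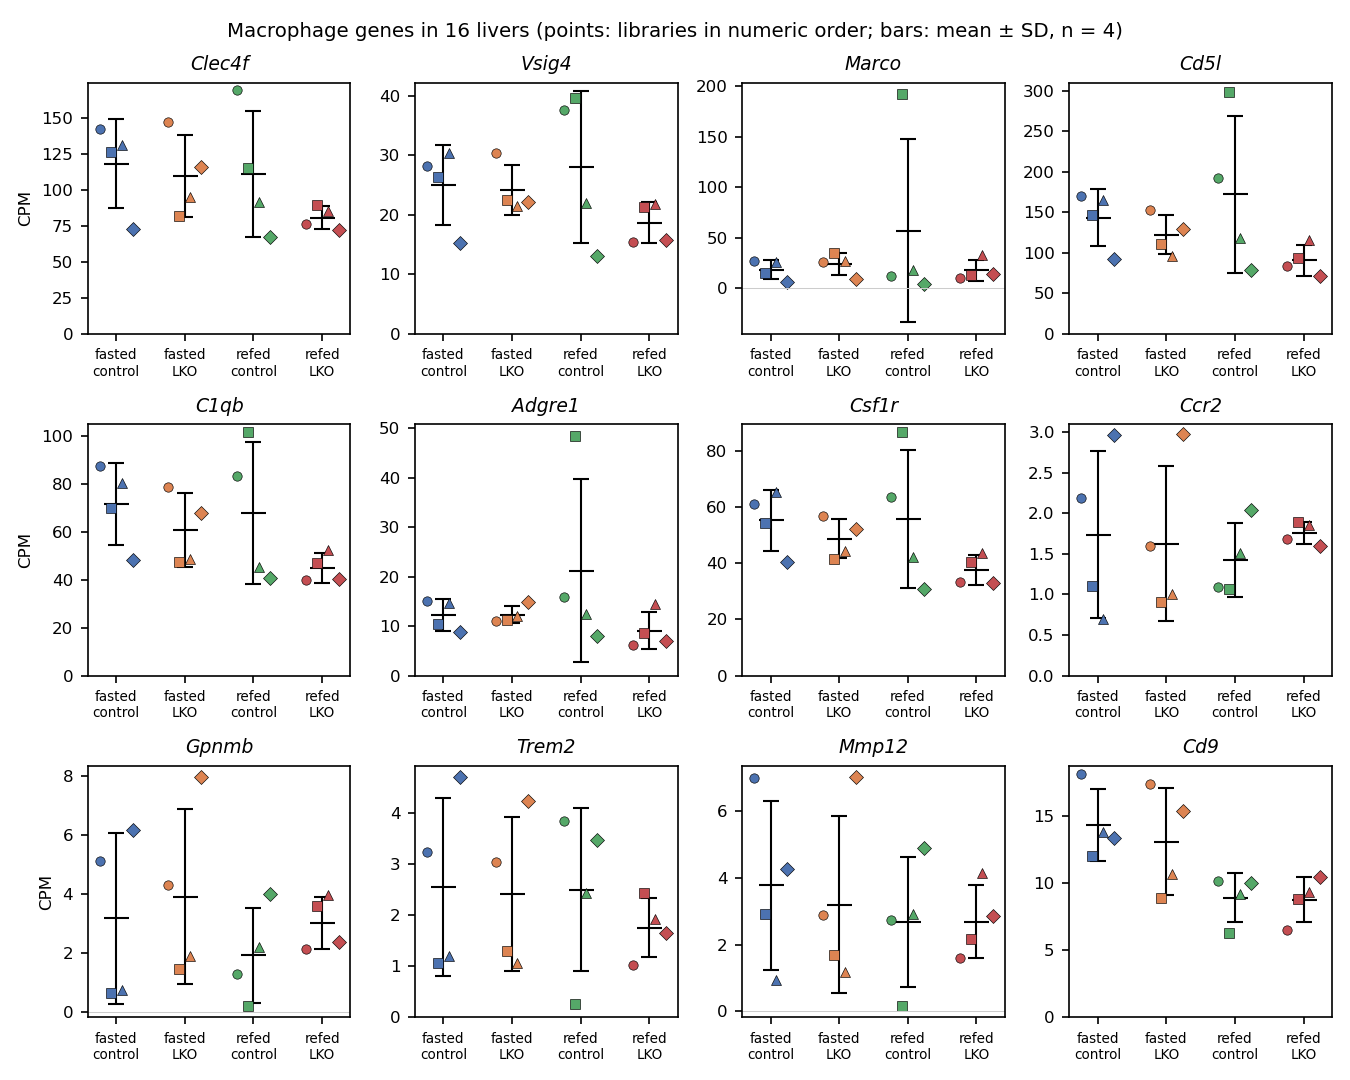
CPM of 12 members in each library, with the 4 libraries of a group in numeric order (circle, square, triangle, diamond) and bars for the mean ± SD (n = 4). In refed controls the square, S49, is the highest point for Marco, Cd5l, C1qb, Adgre1 and Csf1r and the lowest for Gpnmb, Trem2, Mmp12 and Cd9; the bar of Marco there extends below 0 because 1 library dominates its SD.

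Genes of monocytes and recruited cells were low and gave no call in any of the 5 comparisons. Ccr2, the receptor that brings monocytes into tissue, stood at 2.18, 1.11, 0.695 and 2.97 CPM in fasted controls and 1.60, 0.905, 1.01 and 2.98 in fasted LKO livers. It stood at 1.09, 1.06, 1.51 and 2.04 in refed controls and 1.69, 1.90, 1.85 and 1.60 in refed LKO livers. The refed LKO range lay between the 2 highest refed controls, and the log2 fold change was 0.31 (95% interval -0.57 to 1.18, edgeR adjusted p = 0.757).

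Ccl2, the ligand of CCR2, stood at 0.319, 0.159, 1.11 and 1.29 CPM in refed controls and 1.64, 0.916, 1.67 and 1.08 in refed LKO livers, with a log2 fold change of 0.86 (95% interval -0.38 to 2.11, edgeR adjusted p = 0.466). Its highest value was 4.72 CPM in the fasted LKO library S47. Cx3cr1, the fractalkine receptor, ranged from 0.409 to 3.58 CPM over the 16 libraries, Itgam, an integrin chain of monocytes and neutrophils, from 0.247 to 1.24, and Itgax, an integrin chain of dendritic cells and some macrophages, from 0.425 to 2.98. Their refed log2 fold changes were -0.21, -0.23 and 0.32, and none excluded 0. The chemokine Ccl6 was higher in level, at 4.81 to 14.2 CPM, and lower after refeeding in LKO livers by a fitted -0.55 (95% interval -1.04 to -0.06, edgeR adjusted p = 0.113).

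Gpnmb, Trem2 and Mmp12 of the lipid-associated list differed widely between livers of a group. Gpnmb, a membrane glycoprotein of lipid-laden macrophages, stood at 5.11, 0.642, 0.758 and 6.18 CPM in fasted controls and 4.29, 1.47, 1.91 and 7.96 in fasted LKO livers. It stood at 1.28, 0.212, 2.19 and 4.01 in refed controls and 2.15, 3.60, 3.96 and 2.38 in refed LKO livers. In each fasted group 2 libraries were high and 2 were low, and in refed controls S49 was far below the rest. The refed log2 fold change was 0.66 (95% interval -0.90 to 2.22, edgeR adjusted p = 0.694).

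Trem2, a lipid-sensing receptor that signals through the Tyrobp adaptor, split the fasted groups the same way: 3.23, 1.05, 1.20 and 4.69 CPM in controls and 3.04, 1.30, 1.06 and 4.23 in LKO livers. In refed controls it was at 3.83, 0.266, 2.43 and 3.46 and in refed LKO livers at 1.02, 2.42, 1.92 and 1.65, with a log2 fold change of -0.51 (edgeR adjusted p = 0.722). Mmp12, the macrophage elastase, was at 0.159 CPM in S49 and otherwise ranged from 0.948 to 7.02 CPM. Its genotype effects were -0.27 fasted and 0.02 refed, neither called.

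Cd9 was the one member that passed a test. It stood at 18.2, 12.0, 13.8 and 13.3 CPM in fasted controls and 10.2, 6.27, 9.23 and 10.0 in refed controls. It fell by 0.69 on the log2 scale (95% interval -1.14 to -0.23, edgeR adjusted p = 0.0391). In LKO livers it stood at 17.4, 8.88, 10.7 and 15.4 CPM fasted and 6.5, 8.83, 9.33 and 10.5 refed, a log2 fold change of -0.58 (-1.03 to -0.12, edgeR adjusted p = 0.0746). The interaction did not show a difference between genotypes (0.11, 95% interval -0.53 to 0.75). The call in controls ended when S40 (edgeR adjusted p = 0.139), S42 (0.0600), S43 (0.0622), S48 (0.0553), S49 (0.106) or S50 (0.0795) was left out. CD9 is a tetraspanin made by many cell types besides macrophages.

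The other tetraspanin, Cd63, ranged from 5.62 to 16.6 CPM in the fasted and from 3.88 to 9.71 in the refed state, with refeeding effects of -0.46 in controls and -0.67 in LKO livers that were not called. Spp1, osteopontin, stood at 34.2, 24.8, 29.9 and 52.7 CPM in refed controls and at 29.3, 26.7, 29.4 and 29.3 in refed LKO livers, a log2 fold change of -0.30 (edgeR adjusted p = 0.526). S100a8 reached at most 0.865 CPM and S100a9 at most 1.37 CPM in any library, and S100a9 gave no call. Of 11 neutrophil markers 2 passed the filter, and Ly6g was at 0 in all 8 refed libraries. The 11 summed to 6.56 CPM in S46 and up to 165 CPM in S45, nearly all of it Lcn2 (163 CPM in S45), which hepatocytes make too.

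In the refed genotype comparison the lists had unlike medians. The median log2 fold change of LKO over control was -0.97 for the 7 Kupffer genes, -0.51 for the C1q chains, -0.46 for the 10 shared genes, 0.05 for the 6 recruited and 0.00 for the 6 lipid-associated genes, beside -0.01 for all genes. None of the member Kupffer, C1q or shared genes was fitted higher, against 3 of 6 recruited and 3 of 6 lipid-associated genes. For 12 further Kupffer cell genes outside the members the refed median was -0.39, with 2 fitted higher. In the fasted state the medians were -0.11 for Kupffer, -0.24 for C1q, -0.03 for shared, -0.03 for recruited and -0.08 for lipid-associated genes. Without S43 they were -0.28, -0.39, -0.14, 0.26 and 0.21 in that order, and without S47 -0.02, -0.29, -0.12, -0.31 and -0.32, so the signs of the last 2 changed with the library left out. Over other normalizations, filters and tools the refed Kupffer median ran from -0.97 to -0.76. It was -0.44 without S49 and -1.18 without S51, while the lipid-associated median was -0.28 without S49 and 0.12 without S51. No single member passed the test, and these medians carry no p.

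Refeeding was accompanied by opposite medians in controls, at 0.37 for Kupffer and -0.50 for lipid-associated genes, with 6 of 7 and 0 of 6 genes fitted higher. In LKO livers the 2 medians were -0.44 and -0.42. Without S47 the lipid-associated median there was -0.08, and without S45 it was -0.65. The Kupffer median in controls turned to -0.05 without S49 and rested on that library. The lipid-associated median in controls was -0.19 without S49 and -0.68 without S51.

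Single libraries were then read for the 2 lists. For each library the log2(CPM + 0.5) of a gene minus its mean over the 16 libraries was averaged over a list. Refed control S49 stood at 1.33 for Kupffer and -1.36 for lipid-associated genes. Refed control S51 stood at -0.82 and 0.48, and fasted control S43 at -0.76 and 0.75. Fasted LKO S47 stood at -0.25 and 0.98, and fasted control S42 at 0.44 and -0.47. Some livers were high in both, such as fasted control S40 (0.29 and 0.72) and fasted LKO S44 (0.41 and 0.51). When each library was instead set against the mean of its own group, the 2 lists had opposite signs in only 9 of 16 libraries. Among controls these were 3 fasted and 3 refed livers, and among LKO livers 2 fasted and 1 refed.

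The extremes fell gene by gene on the same libraries. S49 was the highest refed control for 5 of 7 Kupffer and 8 of 10 shared genes and the lowest for 6 of 6 lipid-associated genes. S43 and S51 were each the lowest of their group for 7 of 7 Kupffer and 9 of 10 shared genes and the highest for 4 of 6 lipid-associated genes. The refed LKO livers were more even: their Kupffer deviations ran from -0.56 to -0.17 (SD 0.18, n = 4), against -0.82 to 1.33 in refed controls (SD 0.92, n = 4).

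**Figure D4:**
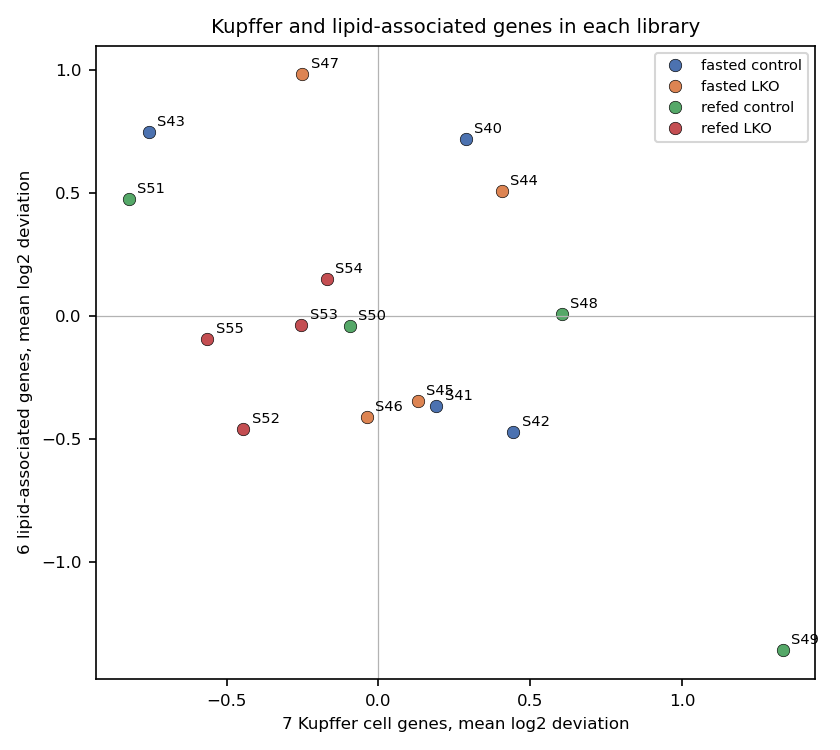
Mean log2 deviation of the 7 Kupffer cell genes (horizontal axis) and of the 6 lipid-associated genes (vertical axis) in each of the 16 libraries, coloured by group. S49 lies alone at the lower right (1.33, -1.36), S43, S47 and S51 lie at the upper left, and the 4 refed LKO libraries lie left of 0 on the horizontal axis.

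Markers of other cells were read in those libraries. Endothelial markers (8 of 8 passed the filter, none at 0) summed to 257 CPM in S49 and to 160 in S51, the highest and lowest of all 16, with group ranges of 204 to 248 in fasted control, 209 to 241 in fasted LKO, 160 to 257 in refed control and 189 to 247 in refed LKO livers. Hepatocyte markers (7 of 8 listed were in the table) also summed highest in S49, at 85226 CPM, against 65733 in S51. Stellate cell and fibroblast markers (8 of 8) summed to 280 to 403, 336 to 401, 311 to 416 and 287 to 358 CPM in the groups in that order. Within them, the collagen gene Col1a1 was highest of its group in S43 (68.4 CPM), S47 (43.3 CPM) and S51 (36.8 CPM), and at 3.98 CPM in S49. That is 1 gene of the 8, and the summed list did not follow it throughout. The sum was 324 CPM in S51 and 369 in S49. It was 399 in S47 and 401 in S44, and 403 in S43, the highest of its group. Adipocyte markers (1 of 5 passed the filter) summed to 58.1 CPM in S43, 9.63 in S47 and 33.1 in S51, each the highest of its group, and to 2.50 CPM in S49, the lowest of its group. Neutrophil markers (2 of 11 passed the filter) summed to 102 CPM in S43 and 113 in S51, the highest of their groups, and to 13.9 in S49, the lowest refed control. They summed to 101 CPM in S47, below S45 at 165, which was nearly all Lcn2, a gene that hepatocytes express too. S100a8 and S100a9 summed to 1.54 CPM in S43 and 1.80 in S47, the highest of their groups, but to 0.272 in S51, the lowest refed control. Bile duct markers (4 of 6 passed) summed to 46.5 CPM in fasted LKO S44, with Krt19 at 29.0 CPM there, and to at most 10.9 CPM elsewhere. Of all genes, edgeR's test for LKO called 12.2% in the fasted and 3.63% in the refed state. Its calls among other-cell markers were Jchain (higher in both states), the stellate gene Dcn (higher, fasted) and the endothelial gene Clec4g (higher, refed). Lower in fasted livers were the hepatocyte genes Asgr1 and Ttr, the red cell gene Alas2 and the adipocyte gene Cfd. Of all these calls, those of Jchain and Alas2 held without any 1 library of the comparison. Asgr1 lost its call without S40, S43, S44, S46 or S47, Ttr and Cfd without S44 or S46, Dcn without S40, S41, S42, S44, S46 or S47, and Clec4g without S48, S49, S51, S53, S54 or S55. The calls of Asgr1, Ttr and Clec4g also ended in the fit of only 2 groups, and that of Dcn with no filter. In refed livers Cfd was fitted lower in LKO too, at -3.18. There DESeq2 called 1 adipocyte, 2 hepatocyte and 1 red cell marker, of which edgeR and limma-voom called 0. Of 4 tested dendritic cell, 4 bile duct and 2 neutrophil markers, 0 were called for LKO by edgeR, DESeq2 or limma-voom, and 1 dendritic cell and 1 bile duct marker had an unadjusted p under 0.05 in fasted livers. After refeeding Lrat and Reln rose in controls, though Reln lost its call without S40, S42, S43, S48 or S49, with no filter and in the fit of only 2 groups, and Krt19 fell in LKO livers by 2.53, which became 0.24 without S44. The call of Krt19 also ended without S52, S53, S54 or S55, with limma-voom and in the fit of only 2 groups. The part of these markers in the macrophage results was not tested.

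**Figure D5:**
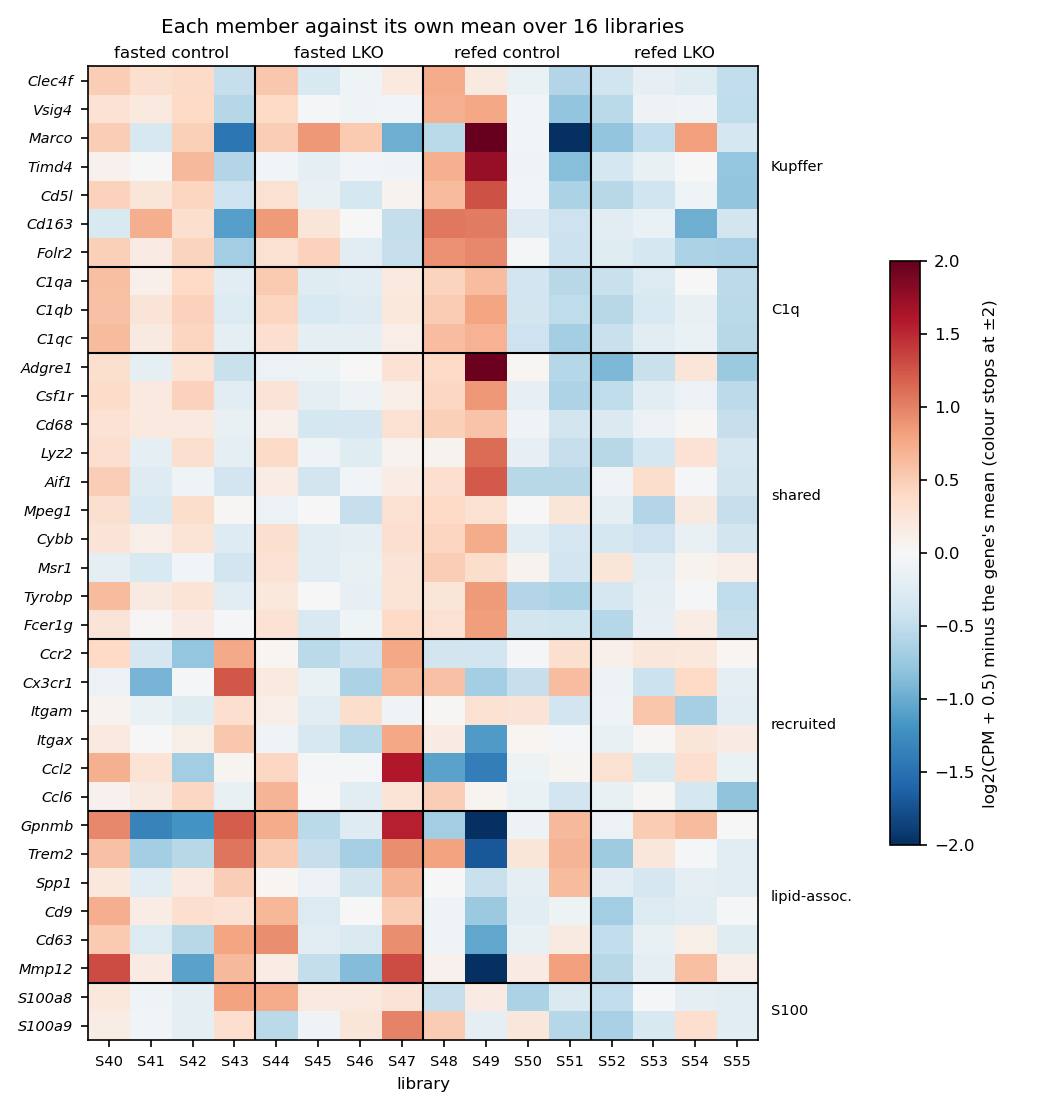
Deviation of each of the 34 members from its own mean over the 16 libraries, as log2(CPM + 0.5), in rows by list and columns by library and group, with colour stopping at ±2. S49 is warm through the Kupffer, C1q and shared rows and cold through the lipid-associated rows, and S43 and S51 show the reverse for most genes. The refed LKO columns are pale to cool in most of the upper rows, with warm exceptions such as Marco in S54 (0.82).

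Lists of related macrophage genes placed around the members held some calls. Over all genes, edgeR's test for LKO called 12.2% in the fasted and 3.63% in the refed state, and the interaction 0.538%. The calls in these lists stand beside those shares. Of 12 further Kupffer cell genes, 0 passed edgeR's test for LKO in the fasted state (0 at an unadjusted p under 0.05, and 0 by DESeq2 and limma-voom) and 1, lower, in the refed state. That gene was Slc40a1, ferroportin, the iron exporter through which Kupffer cells return iron from red cells; hepatocytes express it too. Its CPM were 97.2, 114, 101 and 91.5 in refed controls and 71.0, 66.1, 62.6 and 64.3 in refed LKO livers. It fell by 0.61 on the log2 scale (95% interval -0.84 to -0.38, edgeR adjusted p = 0.00538). In fasted livers it stood at 84.4, 74.2, 71.9 and 90.3 CPM in controls and 93.8, 114, 84.1 and 81.6 in LKO.

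The difference between the genotype effects on Slc40a1, refed minus fasted, was -0.83 (95% interval -1.16 to -0.51, edgeR adjusted p = 0.0320). That call ended without S40, S41, S42, S44, S48, S50, S53, S54 or S55, at an adjusted p of at most 0.0682. Refeeding itself lowered Slc40a1 and Hmox1, the haem-degrading oxygenase, in LKO livers (-0.50 and -0.90, edgeR adjusted p = 0.00434 and 0.0103), and raised Slc40a1 in controls by 0.33 (edgeR adjusted p = 0.0477). The rise ended without S40, S41, S42, S48, S49 or S50, at an adjusted p of up to 0.131, and also with RLE or upper quartile scaling, with no filter and in the fit of only 2 groups.

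Of 12 Fc receptor, engulfment and pattern-recognition genes, 0 passed edgeR's test in the fasted genotype comparison (1 at an unadjusted p under 0.05, and 0 by DESeq2 and limma-voom). In the refed comparison 1 passed, lower in LKO, beside 3.63% of all genes. Of the 12, 11 were fitted lower there, while 47.8% of all genes were fitted higher. The gene that passed was Mertk, the receptor tyrosine kinase by which macrophages take up dying cells. It stood at 15.7, 13.2, 12.4 and 11.1 CPM in refed controls and 7.52, 8.57, 9.83 and 8.79 in refed LKO livers, and fell by 0.59 (95% interval -0.86 to -0.33, edgeR adjusted p = 0.0168). The call ended without S48 (edgeR adjusted p = 0.0634). Refeeding raised Mertk in controls by 0.42 (edgeR adjusted p = 0.0336), which ended without S40, S41, S43, S48, S49 or S50, at an adjusted p of up to 0.114. That call also ended with no filter and in the fit of only 2 groups.

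Transcription factors of macrophages, 16 in all and several of them also active in hepatocytes, held calls for LKO in both states. Tfe3, a lysosomal regulator of the MiT family, rose in both, by 0.32 (edgeR adjusted p = 0.0143) and 0.37 (edgeR adjusted p = 0.0175). The calls ended without S46 in the fasted and without S48, S54 or S55 in the refed state, at an adjusted p of at most 0.0684. Cebpb fell by 0.76 in fasted LKO livers (edgeR adjusted p = 0.0481) and lost the call without any of 6 of the 8 libraries. It also lost the call with limma-voom, with upper quartile scaling and in the fit of only 2 groups. Spi1, which encodes PU.1, was not called and stood at 8.44, 9.35, 11.6 and 7.84 CPM in refed LKO livers against 15.3, 19.4, 10.1 and 7.67 in refed controls.

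Genes of the macrophage growth factor axis held 1 call among 5 tested. This was Csf2rb, a receptor chain for GM-CSF, which rose by 1.07 in fasted LKO livers (edgeR adjusted p = 0.0124, and 0.0510 without S44). Of all genes, LKO called 12.2% in the fasted and 3.63% in the refed state. Of 15 tested chemokine and cytokine genes, Cxcl1 and Il18 fell in fasted LKO livers, by 1.31 and 0.80 (edgeR adjusted p = 0.0266 and 0.0178). Both calls ended without S40 or S46, and that of Cxcl1 also without S43 and in the fit of only 2 groups. Ccl5, a chemokine of T cells, rose in refed LKO livers by 1.15 (edgeR adjusted p = 0.0380), a call that ended without any of the 8 libraries but S52. It also ended with limma-voom and in the fit of only 2 groups. Of 10 tested further monocyte genes, Ly6c2, a surface antigen of inflammatory monocytes, rose there by 1.63 (95% interval 0.78 to 2.47, edgeR adjusted p = 0.0337), from 0.319, 0.584, 0.915 and 1.15 to 1.38, 3.07, 2.72 and 2.17 CPM. Its call ended without S48, S49, S50, S53, S54 or S55, at an adjusted p of up to 0.0984. Lymphocyte markers moved beside these genes: 9 of 11 passed the filter, they summed to 6.53 to 10.2 CPM in refed controls and 20.2 to 43.9 in refed LKO livers, and most of the difference was Jchain, at 0.796 to 2.23 against 12.3 to 31.6 CPM. Their part was not tested.

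The further genes of lipid-associated macrophages are largely made by hepatocytes as well. Of 16, LKO raised 3 and lowered 1 in the fasted state by edgeR's test, where 12.2% of all genes were called. In the refed state LKO moved 0, against 3.63% of all genes (2 of the 16 at an unadjusted p under 0.05, 1 by DESeq2 and 0 by limma-voom). In fasted LKO livers Plin2, which coats lipid droplets, rose by 1.38 and Lipa, the lysosomal acid lipase, by 0.96 (edgeR adjusted p = 0.00224 and 2.4e-04). Lpl, lipoprotein lipase, rose by 0.66 and Apoe fell by 0.35 (edgeR adjusted p = 0.0475 and 0.0323). Lipa stood at 143, 168, 153 and 155 CPM in fasted controls and 351, 221, 348 and 283 in fasted LKO livers, and at 190 to 223 CPM in all 8 refed livers. The difference between its genotype effects was -0.94 (95% interval -1.30 to -0.59, edgeR adjusted p = 0.0261), and it ended without S40, S48, S50 or S55, at an adjusted p of at most 0.0661. The call of Lpl ended without S41, S42, S43, S44 or S46 and that of Apoe without S40, S42, S43, S44 or S46. Both also ended in the fit of only 2 groups, and that of Lpl with limma-voom.

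Refeeding called 15.4% of all genes in controls and 18.1% in LKO livers, and the calls in these wider lists, many of them hepatocyte genes too, stand beside those shares. In controls Ctsl and Apoe fell (-0.55 and -0.49) and Lipa rose (0.41) among the 16 further lipid-associated genes, and Maf, Cebpa and Cebpb fell (-0.39, -0.36 and -0.86) among the 16 factors. Cxcl1 fell by 1.12 there. In LKO livers Plin2, Lpl, Lipa and Ctsl fell (-1.57, -0.66, -0.53 and -0.51), Maf fell (-0.45) and Nr1h3, the liver X receptor alpha gene on which Kupffer cell identity depends, rose (0.45), all by edgeR's test. Leaving out 1 library at a time ended the calls of Cebpa, Cebpb, Cxcl1, Maf and Lipa in controls and of Lpl in LKO livers. The call of Cebpb also ended in the fit of only 2 groups. The calls of Ctsl and Apoe in controls and of Plin2, Lipa, Ctsl, Maf and Nr1h3 in LKO livers held in all 8 such fits.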

How the data were processed

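Bulk RNA sequencing was made from 16 livers, 4 in each of 4 groups. Reads were aligned with HISAT2 2.0.5 to mm39, per the submitters' processing notes. The counting tool, its annotation and its use of strand are not given in the sources used here, so a gene and its antisense partner may share counts. The authors deposited raw counts per gene in 4 tables of 8 libraries each. Per the file headers, the deposited tables also hold log2 fold changes of the first-named group over the second, with p-values raw and adjusted. Another 64 columns, normalized values and FPKM of single libraries, served no purpose here.

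Count columns carry library names and no replicate number, and the group came from the heading of the table that holds them. Joining the tables by gene identifier gave 25803 genes. For the same library 0 counts differed between tables, and 3148 genes not listed in a library's tables were set to 0 there. Fits were made with edgeR 4.0.16 under R 4.3.3. The 14488 genes passing filterByExpr were scaled by TMM (factors 0.941 to 1.07) and fitted by glmQLFit with 4 groups as one factor, at a biological coefficient of variation of 0.185. Tests used glmQLFTest with Benjamini-Hochberg adjustment over all genes, called at 0.05. Intervals are 95%. CPM are counts over the TMM-scaled total. The script was tested on simulated data. DESeq2 1.42.0, limma-voom (limma 3.58.1), RLE and upper quartile scaling, no filter, a filter at a mean of 1 CPM, fits of only 2 groups and leaving out each library were tried as alternatives.

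The members and lists were chosen with earlier results of these data known. All members were to be named, and from the further lists the called genes, at most 6 per list and comparison. Some genes that this rule picks are not reported here. The further lists cover Kupffer cells, transcription factors, the growth factor axis, Fc and engulfment receptors, chemokines, lipid-associated macrophages, monocytes, and markers of neutrophils, lymphocytes, dendritic cells, endothelium, stellate cells, bile duct, hepatocytes, red cells and adipocytes.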

Additional observations from a re-analysis of the deposited data

Results flagged for a closer look

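In 5 of 136 groups of 4 libraries, 1 library of a member lay far from the other 3, and chance alone gives about 5% of groups. Marco stood at 192 CPM in refed control S49, with the others between 4.14 and 18.0 CPM. Vsig4 stood at 30.4 CPM in fasted LKO S44, with the others between 21.5 and 22.5 CPM. S100a8 stood at 0.799 CPM in fasted LKO S44, with the others between 0.392 and 0.435 CPM, which rests on few counts. Timd4 stood at 5.15 CPM in fasted LKO S45 and Spp1 at 26.7 CPM in refed LKO S53, both low beside 3 close values (5.66 to 5.72 and 29.3 to 29.4 CPM).

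For 2 genes outside the members the effect of LKO differed between the fasted and the refed state by the interaction test. The difference, refed minus fasted, was -0.94 on the log2 scale for Lipa (edgeR adjusted p = 0.0261) and -0.83 for Slc40a1 (edgeR adjusted p = 0.0320). Of the 22 other settings, 18 kept the call for Lipa and 13 for Slc40a1.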

How the results depend on the processing

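The counts of called members were unchanged under RLE and upper quartile scaling, no filter, a filter at a mean of 1 CPM, DESeq2, limma-voom and fits of only 2 groups. Leaving out 1 library gave 0 to 3 members for LKO refed, 0 to 2 for refeeding in controls and 0 to 1 for refeeding in LKO livers, with 0 throughout for LKO fasted and the interaction. The 3 members came without S51, the second member in controls (Msr1) without S51 and the 1 in LKO livers (Cd9, edgeR adjusted p = 0.0278) without S45. The cause was not tested. Krt19, lower after refeeding in LKO livers (-2.53), ran from -2.89 to 0.24 when 1 library was left out, and the reversal came without S44, the library with 29.0 CPM of it.

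Over all genes, LKO refed called 526 genes (924 by DESeq2, 197 to 517 without 1 of the 8 libraries compared, up to 601 without a fasted one) and the interaction 78 (467 by DESeq2, 118 with the filter at a mean of 1 CPM, 8 to 282 without 1 of the 16). LKO fasted called 1772 (1048 to 1985 without 1 of its 8) and refeeding in controls 2238 (1220 to 2483 without 1 of its 8). Upper quartile scaling turned the interaction's split from 45 higher and 33 lower to 43 and 65. The medians of the recruited list for LKO fasted (-0.11 to 0.06) and of the lipid-associated list for the interaction (-0.06 to 0.10) changed sign over settings other than leaving out a library. No paired analysis was possible because the count columns carry no replicate numbers. Counts of about 1 CPM or less, as in Itgam and S100a8, limit those genes most.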
